A study of Homo sapiens with 2 samples.

Results

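The mRNAs described here encode the machinery that carries proteins into the endoplasmic reticulum (ER), attaches sugars to them and ships them onward. Members were chosen by gene name, with earlier results of these data known. The names cover the SEC61, SEC62 and SEC63 translocation genes and the signal recognition particle (SRP) with its receptor. They also cover the SSR, SPCS, SEC11, SEC13, SEC22, SEC23, SEC24, SEC31, TMED and PDIA families. The rest are the oligosaccharyltransferase subunits DDOST, RPN1, RPN2, DAD1, STT3A, STT3B and OSTC, and the chaperones CANX and CALR. These names took 62 of the 18781 genes in the deposited table, of which 58 are protein-coding in RefSeq. In the study, wild-type T47D cells, a luminal breast cancer line, were lysed and the lysate was incubated with beads that carried either an antibody against IMP1 or normal IgG. IMP1 is an RNA-binding protein known for a role in the localization and translation of many mRNAs, and RNA immunoprecipitation (RIP) followed by RNA-seq was used to find the RNAs that came down with it. Each condition has 1 library, so no difference below has a replicate check, no p-value is given, and the lysate itself was not analysed here. The antibody cannot be told apart from any other difference between the 2 libraries. The cells were grown in DMEM with serum, and the lysate was the supernatant of a high-speed spin after lysis in a non-ionic detergent.

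Most secreted and membrane proteins of human cells enter the ER while they are being made. SRP binds the signal peptide as it leaves the ribosome, the SRP receptor docks the ribosome at the ER, and the chain passes through the SEC61 channel, where signal peptidase cuts off the signal and the oligosaccharyltransferase adds a glycan. Calnexin, calreticulin and the protein disulfide isomerases then help the chain to fold, and the COPII coat and TMED receptors take it to the Golgi. In secretory epithelia such as the breast, this machinery is expressed at high levels.

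The values are FPKM (fragments scaled by transcript length and library size). They carry no read counts, the depth is unknown, and counting intervals cannot be given. The IMP1 library listed 1202 genes at 0 and the IgG library 7270. The FPKM values summed to 353885 with the IMP1 antibody and to 1298363 with IgG, with 48.4% and 59.9% of the sum from mitochondrially encoded genes. Of the 15 luminal markers, all were above 0 with the IMP1 antibody and 2 (TFF1 and ELF3) were listed at 0 with IgG. Of these 15, 9 were at least 2-fold higher with the IMP1 antibody and 1 was at least 2-fold lower. Of 15 mesenchymal markers, 13 were at least 2-fold lower with the IMP1 antibody, where 7 were listed at 0, and their summed level was 11.7 FPKM there against 258 FPKM with IgG. Only 4 of 10 markers of plasma and other blood cells were listed, and they lay on different sides: CD74 had 6.42 FPKM with the IMP1 antibody against 305 FPKM and HLA-DRA 0 against 17.4 FPKM, while SDC1 had 8.10 FPKM against 2.54 FPKM and MZB1 had 1.95 FPKM and was listed at 0 with IgG. Over all genes in the table, 39.9% were at least 2-fold higher and 29.9% at least 2-fold lower, which is the background for these marker counts. The part of these differences between the libraries in the values below was not tested.

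On the deposited scale, the ER machinery had members on either side, and other scalings, given further on, move the whole set towards the IMP1 library. Levels ranged from 0.111 to 275 FPKM (median 15.6) with the IMP1 antibody and from 0 to 234 FPKM (median 22.1) with IgG. The measure used throughout is the log2 of the IMP1 value over the IgG value after adding 0.1 FPKM to each, which shrinks the difference of low genes. The median log2 ratio of the 62 members was -0.33, against 0.40 over all genes. Of the members, 12 (19.4%) were at least 2-fold higher with the IMP1 antibody, against 39.9% of all genes, and 18 (29.0%) were at least 2-fold lower, against 29.9% of all genes. Many genes of the full table are listed at 0 with IgG, so the 6909 genes that reached 1 FPKM in each library, called expressed genes below, are the closer comparison for these abundant mRNAs. Among them were 56 members, with a median log2 ratio of -0.39 against -0.78 over all expressed genes. Of the 56, 8 (14.3%) were at least 2-fold higher, against 11.5% of expressed genes, and 17 (30.4%) were at least 2-fold lower, against 44.0% of expressed genes. The share on the higher side was thus near the background, and the share on the lower side was below it. The ratio of 34 of the 56 members was above the median of expressed genes.

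**Figure D1:**
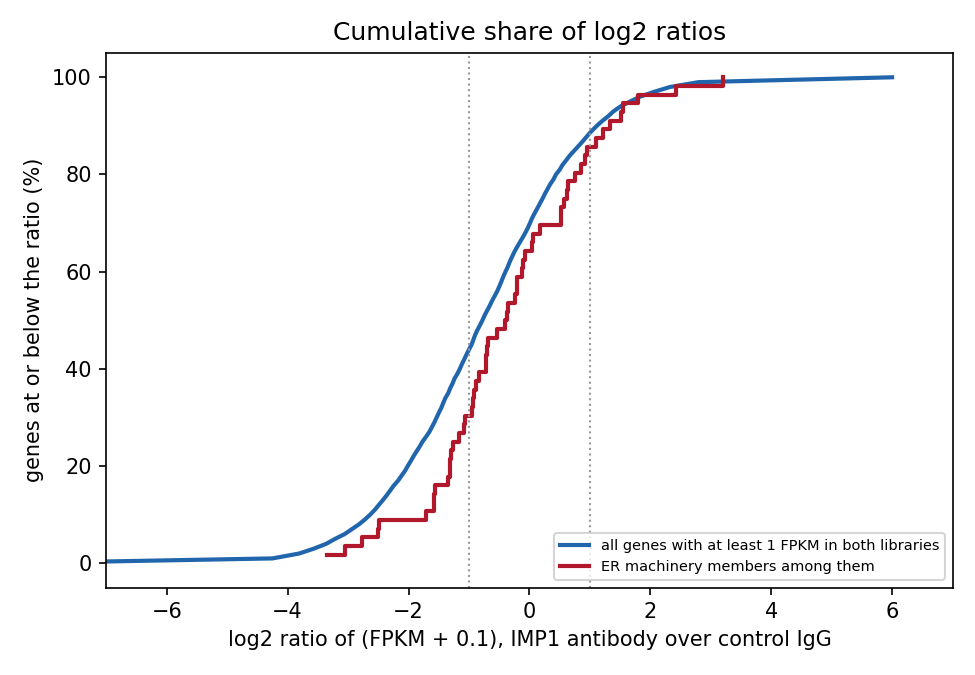
Cumulative share (%, y axis) of the log2 ratio of (FPKM + 0.1), IMP1 antibody over control IgG (x axis), for the 6909 expressed genes (1 FPKM or more in each library) and for the 56 ER machinery members among them. Dotted lines mark a 2-fold difference, and the members' line runs to the right of the line for all expressed genes at a log2 ratio of -1, where 30.4% of members and 44.0% of expressed genes lie at or below it.

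The direction of these ratios depends on how the libraries are scaled. The deposited values are not on a common scale, and setting the median ratio of the expressed genes to 1 raises every IMP1 value by 0.79 on the log2 scale before the pseudocount is added. The members' median then became 0.43, above 0 instead of below it, with 21 members at least 2-fold higher and 6 lower, in place of the 12 higher and 18 lower of the deposited scale. Of the members past 2-fold, 77.8% were then higher, against 69.9% of all genes past 2-fold. Among expressed genes, 1724 were then higher and 1721 lower. For all expressed genes the median moved from -0.78 to 0 by construction. Scaling to the same FPKM sum without the 50 highest genes of either library gave the members a median of 0.22, and 70.0% of those past 2-fold were higher, against 66.4% for all genes and 40.6% for expressed genes. Scaling to the same sum over all genes gave a median of 1.51, and 93.0% of the members past 2-fold were higher, against 83.1% for all genes and 86.6% for expressed genes. Under each of these scalings the members' median stayed above that of the expressed genes and below that of all genes. The 62 members held 0.592% of the summed FPKM with the IMP1 antibody and 0.187% with IgG, or 1.15% and 0.467% of the sum outside the mitochondrially encoded genes. Levels per gene are therefore given beside each ratio, and weight is put on differences between members, which a common scale hardly moves.

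**Figure D2:**
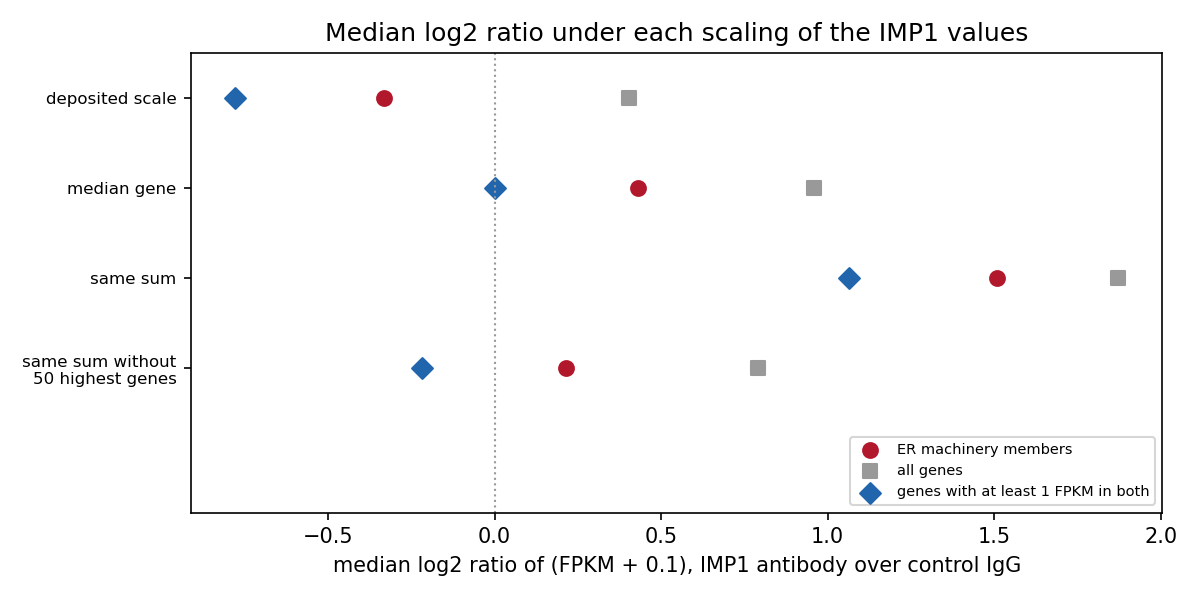
Median log2 ratio of (FPKM + 0.1), IMP1 antibody over control IgG (x axis), of the ER machinery members, of all genes and of the expressed genes, on the deposited scale and after 3 scalings of the IMP1 values (y axis). The members' median moves from -0.33 to 1.51 and lies between the other medians in every row.

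The targeting step was split between particle and receptor. All 6 protein subunits of SRP were lower with the IMP1 antibody (log2 ratio -3.04 to -0.89, 5 of them at least 2-fold, against 44.0% of expressed genes), whereas both receptor subunits were higher, on the deposited scale; after scaling to the same sum, 4 of the 6 SRP subunits were above 0 too. SRP54, the subunit that binds the signal peptide and GTP, had 5.33 FPKM with the IMP1 antibody and 44.7 FPKM with IgG, for a log2 ratio of -3.04, which was above that of only 6.14% of expressed genes. SRP19, which helps SRP54 to assemble on the particle's RNA, had 9.56 FPKM against 65.6 FPKM, a log2 ratio of -2.77. These subunits had the lowest ratios of the group. SRP14 and SRP9, which form the dimer that slows translation, ranked 1 and 4 by abundance among the members with IgG, at 234 FPKM and 125 FPKM. With the IMP1 antibody SRP14 had 71.1 FPKM (log2 ratio -1.72) and SRP9 had 50.1 FPKM (log2 ratio -1.32). The large scaffold subunits SRP72 and SRP68 were lower in abundance, with 5.23 against 11.8 FPKM and 5.15 against 9.60 FPKM. The receptor subunits had the opposite sign. SRPR, the GTPase that meets SRP54, had 43.2 FPKM with the IMP1 antibody and 22.9 FPKM with IgG, for a log2 ratio of 0.91. SRPRB, which anchors it in the membrane, had 28.1 FPKM against 11.1 FPKM, a log2 ratio of 1.34, so that SRPRB and SRP54 differed by 4.38 in their log2 ratios.

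The channel was also split on the deposited scale, between the SEC61 pore and the SEC62 and SEC63 proteins that assist it. SEC61A1, the pore-forming subunit, had 30.2 FPKM with the IMP1 antibody and 10.3 FPKM with IgG, for a log2 ratio of 1.54, which was above that of 94.2% of expressed genes. Its less abundant paralog SEC61A2 had 4.95 FPKM against 2.68 FPKM, a log2 ratio of 0.86. Both pore genes were thus higher with the IMP1 antibody. Of the small subunits, SEC61G had 56.8 FPKM against 39.6 FPKM (log2 ratio 0.52), while SEC61B had 14.5 FPKM against 24 FPKM (log2 ratio -0.73, which became positive after scaling to the same sum and to the median gene). SEC63, a membrane J-domain protein that recruits the chaperone BiP to the channel, had the lowest ratio of all protein-coding members, with 5.01 FPKM against 52.2 FPKM and a log2 ratio of -3.36, and it stayed below 0 under every scaling. SEC62, its partner in moving short and late-arriving proteins, had 22.8 FPKM against 47.7 FPKM, a log2 ratio of -1.06. SEC61A1 was present at 6.03 times the level of SEC63 with the IMP1 antibody and at 0.197 times its level with IgG, a difference of 4.90 in their log2 ratios.

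The TRAP complex sits beside SEC61 and helps some signal peptides to open it. All 4 of its mRNAs stayed within 2-fold on the deposited scale, as did 3078 of the 6909 expressed genes. SSR2 was its most abundant mRNA, with 125 FPKM with the IMP1 antibody and 64.3 FPKM with IgG (log2 ratio 0.96). SSR4 had 32.0 FPKM against 22.2 FPKM (log2 ratio 0.52), and SSR3 had 59.9 FPKM against 63.3 FPKM (log2 ratio -0.08). SSR1 had 39.4 FPKM against 65.1 FPKM, a log2 ratio of -0.72. In the IgG library SSR1, SSR2 and SSR3 were nearly equal, whereas in the IMP1 library SSR2 was at 3.17 times the level of SSR1. After scaling to the median gene, SSR2 (log2 ratio 1.75) and SSR4 (1.32) were at least 2-fold higher, as were 24.95% of expressed genes. After scaling to the same sum, SSR1 (1.15) and SSR3 (1.79) were too, against 51.6% of expressed genes.

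Signal peptidase was the most uniform group with 5 or more members. All 5 of its mRNAs were lower with the IMP1 antibody on the deposited scale, as were 4822 of the 6909 expressed genes. Their log2 ratios lay within a narrow range from -1.08 to -0.53. Only 1 of the 5 (20%) was at least 2-fold lower, against 44.0% of expressed genes. After scaling to the same sum all 5 were above 0, as were 5284 of the 6909 expressed genes. The catalytic subunits SEC11C and SEC11A had 13.8 FPKM against 29.5 FPKM and 30.3 FPKM against 58.0 FPKM. The accessory subunit SPCS2 was the most abundant, with 63.5 FPKM against 113 FPKM. SPCS1 had 48.0 FPKM against 69.3 FPKM, and SPCS3 had 6.67 FPKM against 10.7 FPKM. The group's median of -0.84 was near the median of expressed genes (-0.78).

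**Figure D3:**
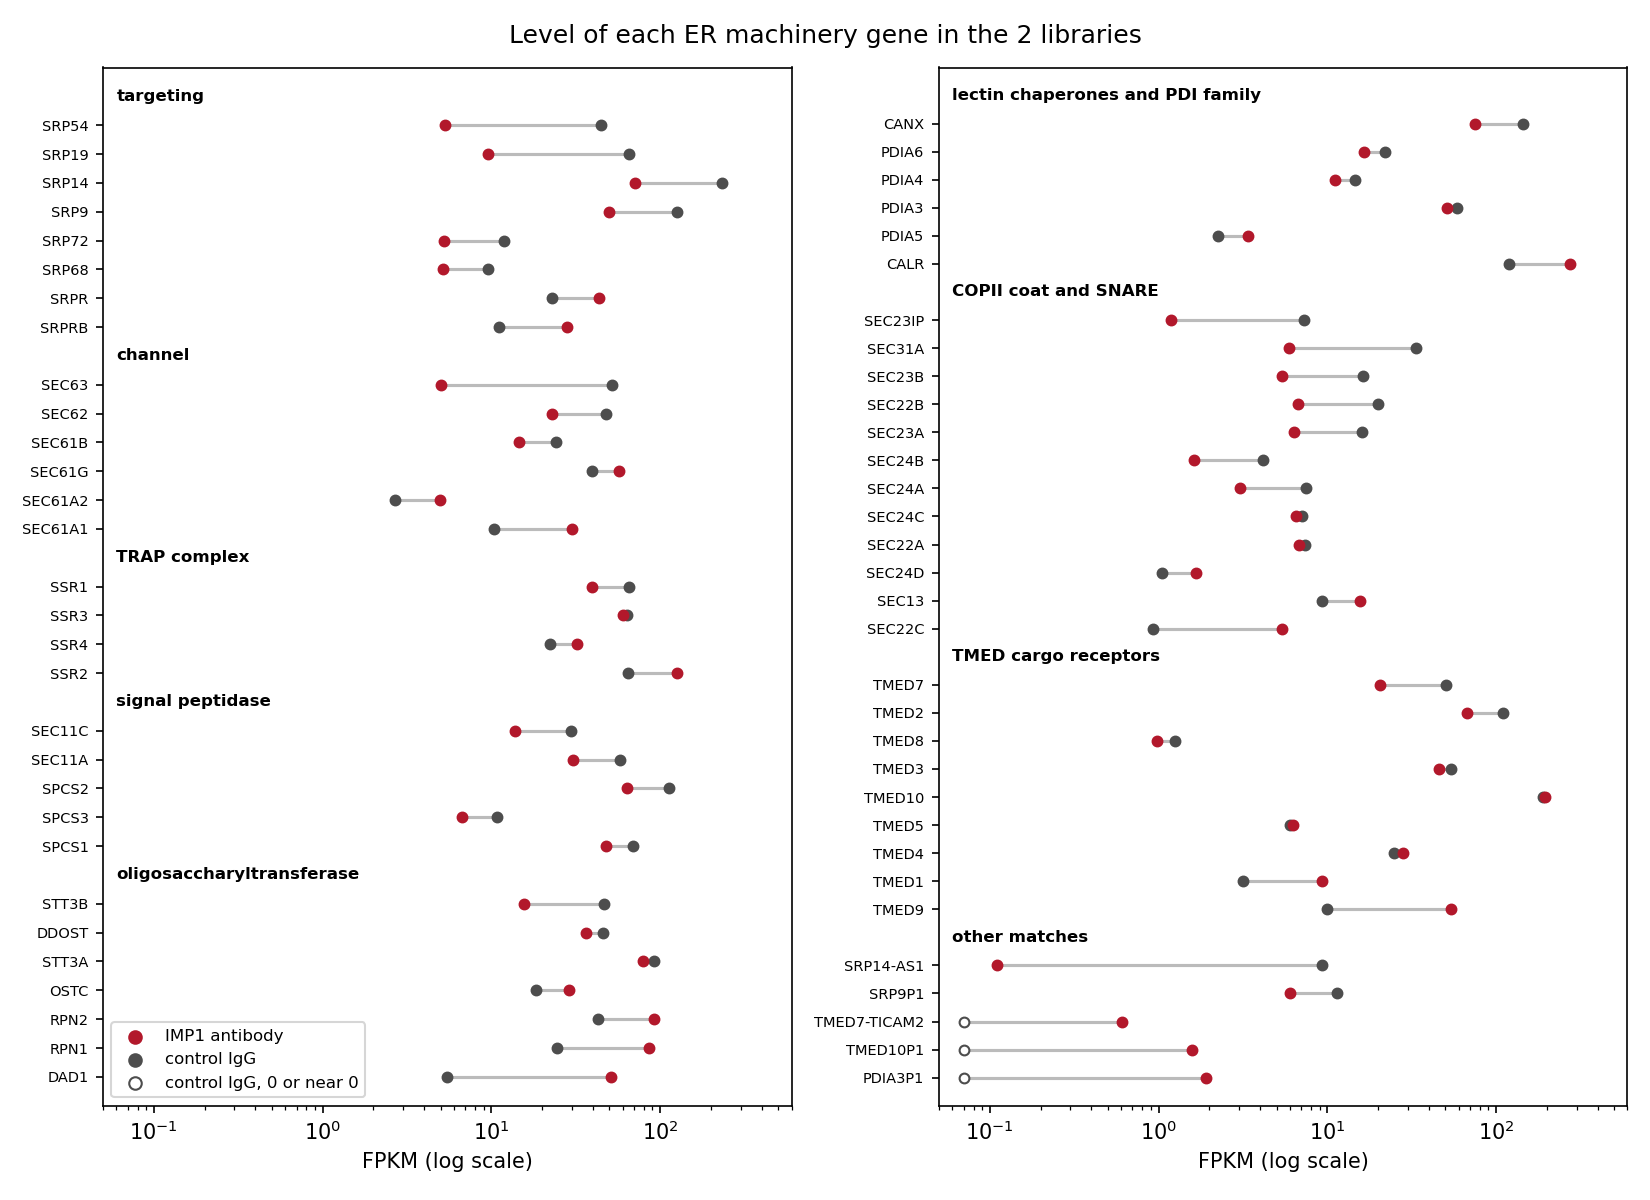
FPKM (x axis, log scale) of each of the 62 members in the library of the IMP1 antibody (red) and of control IgG (grey), by role and, within a role, by log2 ratio. Open points drawn at the left edge stand for 0 or a value near 0 with IgG, and the lines of the 6 SRP subunits all run to the right from the IMP1 value while those of SRPR and SRPRB run to the left.

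The oligosaccharyltransferase, which moves a preformed glycan onto asparagine residues, had the highest median log2 ratio of the role groups, at 0.64, apart from the copies and neighbours described further on. DAD1, a small subunit first named as a defender against cell death, had 50.9 FPKM with the IMP1 antibody and 5.45 FPKM with IgG. Its log2 ratio of 3.20 was the highest among the expressed members and exceeded that of 99.4% of expressed genes. RPN1, which brings substrates to the enzyme, had 85.9 FPKM against 24.6 FPKM, a log2 ratio of 1.80. RPN2 had 91.4 FPKM against 42.6 FPKM, a log2 ratio of 1.10. These 3 subunits, 42.9% of the 7, were at least 2-fold higher on the deposited scale, against 11.5% of expressed genes. Only 1 of the 7 (14.3%) was at least 2-fold lower, against 44.0%. The name rule leaves out partners of the enzyme and the channel, listed further on. Of the 8 expressed partners 4 were higher and 2 lower, namely TMEM258 (log2 ratio -1.18) and KRTCAP2 (log2 ratio -1.10). DAD1, RPN1 and RPN2 were also at least 2-fold higher under each other scaling, and OSTC then joined them. After scaling to the same sum DDOST (log2 ratio 1.53) and STT3A (1.66) did so too, while STT3B (0.29) did not. The share of expressed genes higher under the other scalings was 24.95% (median gene), 20.1% (same sum without the 50 highest genes) and 51.6% (same sum). OSTC, which joins the enzyme to SEC61, had 28.7 FPKM against 18.4 FPKM (log2 ratio 0.64), and DDOST had 36.2 FPKM against 46.1 FPKM (log2 ratio -0.35). The catalytic paralogs were apart from each other. STT3A, which glycosylates chains as they emerge from the channel, had 79.1 FPKM against 91.7 FPKM (log2 ratio -0.21), and STT3B, which can act later on sites that were skipped, had 15.5 FPKM against 46.6 FPKM (log2 ratio -1.58). STT3A was thus at 5.10 times the level of STT3B with the IMP1 antibody and at 1.97 times with IgG.

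Among CALR, CANX and the protein-coding genes named PDIA, only calreticulin was past 2-fold on the deposited scale. Thus 1 of the 6 (16.7%) was higher, near the 11.5% of expressed genes, and 0 were lower, against 44.0%. PDIA5 was at least 2-fold higher too after scaling to the median gene (log2 ratio 1.34). After scaling to the same sum only CANX (0.92) was within 2-fold. CALR, a soluble lectin of the ER lumen that binds calcium, was the most abundant member in the IMP1 library at 275 FPKM, and had 118 FPKM with IgG, for a log2 ratio of 1.21. CANX, its membrane-bound relative, was in the opposite order with 74.7 FPKM against 145 FPKM, a log2 ratio of -0.96. CALR was thus at 3.68 times the level of CANX with the IMP1 antibody and at 0.816 times with IgG. The disulfide isomerases named PDIA lay between them. PDIA3, which works with both lectins, had 51.2 FPKM against 58.9 FPKM (log2 ratio -0.20). PDIA6 had 16.5 FPKM against 21.9 FPKM (log2 ratio -0.41), and PDIA4 had 11.2 FPKM against 14.5 FPKM (log2 ratio -0.37). PDIA5 was scarce, with 3.36 FPKM against 2.24 FPKM (log2 ratio 0.56).

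CALR, CANX and PDIA6 share a sequence that the choice of members did not use. The ER stress response element, through which ATF6 is known to raise such genes, was searched on both strands as CCAAT, 9 bases of any kind and CCACG in the 250 bases before and 50 bases after each RefSeq start site (assembly GRCh38.p14). It was found for 3 of the 51 members with such a window, and for 25 of all 27305 genes with one (0.0916%), or in 0.0769% of all 35116 windows. The related element, searched as ATTGG, any base and CCACG, was found for 0 of the 51 members and for 19 of all genes, or in 0.0541% of all windows. The 3 matches are shown because they mark genes of 1 known program whose mRNAs lay on different sides on the deposited scale. Capitals mark the match, in lower case are the bases around it on the gene's strand, and all bases shown lie before the start site used. The match begins 225 bases before the start of CALR, 86 before that of PDIA6, and 151 and 189 before the annotated starts of CANX.
CALR (chr19:12938359-12938442, plus strand, match read on the other strand): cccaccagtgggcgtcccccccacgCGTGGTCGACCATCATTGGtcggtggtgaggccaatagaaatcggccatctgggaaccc
CANX (chr5:179698773-179698801, plus strand): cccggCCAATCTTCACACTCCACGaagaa
PDIA6 (chr2:10812848-10812876, minus strand): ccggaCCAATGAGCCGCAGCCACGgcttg
With the same element in their promoters, these genes had log2 ratios of 1.21, -0.96 and -0.41. A match describes the sequence alone and does not show that a factor binds there.

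The COPII coat, which buds vesicles from the ER, was mostly lower with the IMP1 antibody. Together with the SEC22 proteins its 12 members had a median log2 ratio of -1.29 on the deposited scale and of 0.55 after scaling to the same sum, and 7 of the 12 (58.3%) were at least 2-fold lower, against 29.9% of all genes. All 7 are among the 11 expressed members of the group (63.6%), against 44.0% of expressed genes. SEC31A, the outer coat rod, had 5.92 FPKM with the IMP1 antibody and 33.6 FPKM with IgG, for a log2 ratio of -2.48. Its partner SEC13, which is also part of nuclear pores, had 15.7 FPKM against 9.28 FPKM, a log2 ratio of 0.75, so that these partners differed by 3.23 in their log2 ratios. SEC23A and SEC23B, paralogs of the inner coat that activate the GTPase SAR1, were close to each other, with 6.30 against 16.1 FPKM and 5.35 against 16.3 FPKM. Of the SEC24 cargo adaptors, SEC24A and SEC24B were close to each other. SEC24A had 3.03 FPKM against 7.42 FPKM (log2 ratio -1.26), and SEC24B had 1.62 FPKM against 4.16 FPKM (log2 ratio -1.31). SEC24C had 6.48 FPKM against 7.09 FPKM (log2 ratio -0.13), and SEC24D had 1.67 FPKM against 1.04 FPKM (log2 ratio 0.63). SEC24A and SEC24B, which are closer relatives of each other than of SEC24C and SEC24D, differed by only 0.05. SEC24C and SEC24D were farther apart, with a difference of -0.75 (SEC24C minus SEC24D). SEC23IP, a protein that binds SEC23, had 1.19 FPKM against 7.23 FPKM, a log2 ratio of -2.51 and the lowest of the group. With a pseudocount of 1 its ratio was -1.91, and SEC31A was the lowest at -2.32. At the pseudocount of 0.1, the SEC22 genes were the farthest apart of the paralogs compared here. With a pseudocount of 1, SEC22C and SEC22B had log2 ratios of 1.73 and -1.45. TMED9 and TMED7 then had 2.33 and -1.26 and were farther apart. SEC22B, the SNARE that acts between the ER and the Golgi, had 6.70 FPKM against 20.0 FPKM (log2 ratio -1.56), SEC22A had 6.83 FPKM against 7.40 FPKM (log2 ratio -0.11), and SEC22C, under 1 FPKM with IgG, had 5.38 FPKM against 0.920 FPKM (log2 ratio 2.43). Their levels were thus alike with the IMP1 antibody, whereas SEC22B was at 21.7 times the level of SEC22C with IgG.

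The TMED family, cargo receptors that cycle between the ER and the Golgi, had a median log2 ratio of 0.05 on the deposited scale. Of its 8 expressed members, 7 were above the median of expressed genes (-0.78). The family's median was 0.84 after scaling to the median gene, where that of expressed genes is 0, and 1.92 after scaling to the same sum. TMED10 was the second most abundant member in either library, with 196 FPKM with the IMP1 antibody and 190 FPKM with IgG (log2 ratio 0.05). TMED2, which pairs with it, had 67.1 FPKM against 109 FPKM (log2 ratio -0.70). TMED9 had 53.9 FPKM against 9.92 FPKM, a log2 ratio of 2.43, which was above that of 98.2% of expressed genes. TMED1 was also past 2-fold, with 9.27 FPKM against 3.18 FPKM (log2 ratio 1.52). TMED7 was the only member of the family at least 2-fold lower on the deposited scale, with 20.5 FPKM against 50.2 FPKM (log2 ratio -1.29, and 0.58 after scaling to the same sum). TMED3 had 45.8 FPKM against 53.8 FPKM and TMED4 had 27.9 FPKM against 24.7 FPKM. TMED5 had 6.24 FPKM against 5.99 FPKM, and TMED8 was near the lower end with 0.985 FPKM against 1.25 FPKM. These members were within 2-fold between the libraries. Of the 8 expressed members of the family, 2 (25%) were at least 2-fold higher, against 11.5% of expressed genes. Only 1 (12.5%) was at least 2-fold lower, against 44.0%.

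**Figure D4:**
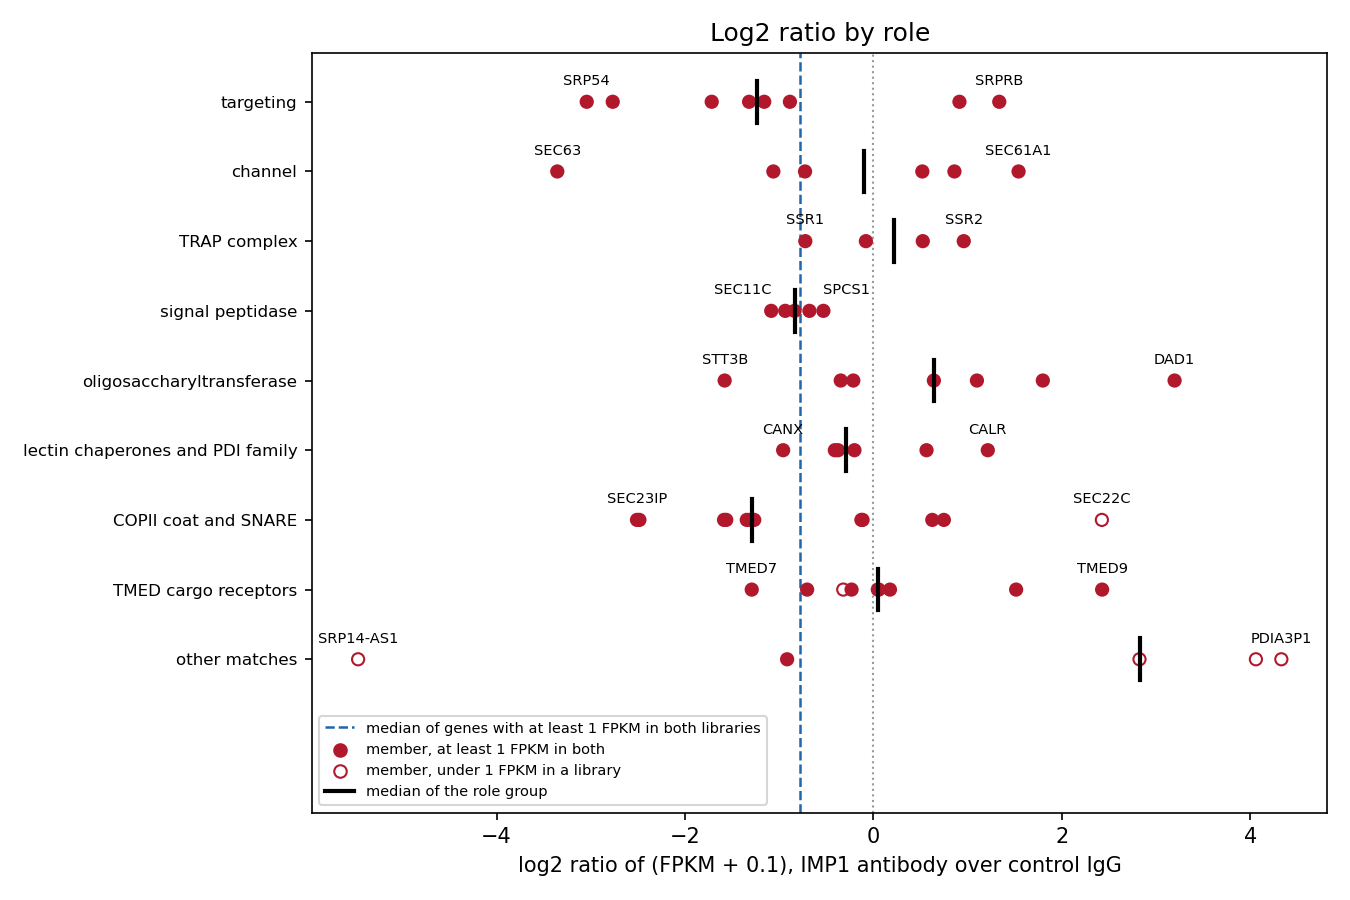
Log2 ratio of (FPKM + 0.1), IMP1 antibody over control IgG (x axis), of each member by role (y axis), with the lowest and highest member of each role named. Black bars are medians, the dashed line is the median of expressed genes (-0.78), open points are under 1 FPKM in a library (the rightmost are set by the pseudocount), and signal peptidase is tight (-1.08 to -0.53) while the channel spans -3.36 to 1.54 and the oligosaccharyltransferase -1.58 to 3.20.

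The name rule also took 5 RNAs that are copies, a readthrough or a non-coding neighbour of these genes, and they include the lowest ratio and, where IgG was at or near 0, the highest ones, and the size of these extremes depends on the pseudocount. PDIA3P1 and TMED10P1, pseudogenes, had 1.91 FPKM and 1.57 FPKM with the IMP1 antibody and were listed at 0 with IgG, where 32.9% of all genes with 1 to 3 FPKM in the IMP1 library were also listed at 0. No fold is given for them. They held 3.73% and 0.801% of the level of PDIA3 and TMED10, and adding them to the parent changed its log2 ratio from -0.20 to -0.15 and from 0.05 to 0.06. SRP9P1 had 6.02 FPKM against 11.4 FPKM, a log2 ratio of -0.92 near that of SRP9. Reads may be split between a gene and such a copy, so the values of these pairs are uncertain. TMED7-TICAM2, a readthrough that shares its interval with TMED7, had 0.609 FPKM with the IMP1 antibody and a value of practically 0 with IgG. SRP14-AS1, a lncRNA next to SRP14 now called SRP14-DT, was at 0.111 FPKM with the IMP1 antibody and 9.25 FPKM with IgG, the lowest log2 ratio of all members (-5.47). Its IMP1 value is near the pseudocount, and the ratio was -3.21 with a pseudocount of 1 and -6.26 with 0.01. Its interval begins just after that of SRP14 ends on chromosome 15 (40331512 against 40331389), and whether counting used strand is not given in the sources used here.

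Members lie on 19 chromosomes, and 11 of the 62 (17.7%) are on chromosome 3, which holds 5.47% of all genes in the table. Of these 11, SEC61A1, RPN1, SRPRB and SEC22C were at least 2-fold higher and STT3B and SEC62 at least 2-fold lower on the deposited scale, and their median log2 ratio was 0.56. The share higher was 36.4% against 39.9% of all genes, and the share lower was 18.2% against 29.9%. Of the 10 expressed ones, 3 were higher and 2 lower, against 11.5% and 44.0% of expressed genes. In the positions of the file, which uses build hg19, CALR lies on chromosome 19 from 13049392 to 13055303, DAD1 on chromosome 14 from 23033805 to 23058175 and SEC63 on chromosome 6 from 108188960 to 108281190. Some intervals of the file span neighbours, and SEC22A and PDIA5 carry the same one, on chromosome 3 from 122785909 to 122992977. The length of the interval is thus only a rough guide to the gene, and across the 56 expressed members its Spearman rho with the log2 ratio was -0.03, against -0.17 across the 6909 expressed genes. The levels of the 56 members in the libraries had a Spearman rho of 0.69, against 0.55 across expressed genes. These are descriptions across genes, which share the same 2 libraries and are not independent replicates.

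Other genes of the secretory pathway, listed by role, also lay on both sides. The counts below are to be read against the 39.9% of all genes at least 2-fold higher and the 29.9% lower, or, where given for expressed genes, against 11.5% and 44.0%. Of 10 partners of the oligosaccharyltransferase and the channel, 6 were at least 2-fold higher with the IMP1 antibody and 2 were lower, and of the 8 expressed ones 4 were higher and 2 lower. MLEC, a lectin that binds newly attached glycans, had 12.6 FPKM against 2.33 FPKM (log2 ratio 2.38), and TMEM258, an oligosaccharyltransferase subunit, had 41.6 FPKM against 94.3 FPKM (log2 ratio -1.18). Of 15 folding factors of the lumen, 3 were higher and 5 lower, and of the 13 expressed ones 1 was higher and 5 lower. P4HB, the founding disulfide isomerase, had 221 FPKM against 66.4 FPKM (log2 ratio 1.74), on the side of CALR, and HSP90B1, the HSP90 of the ER, had 15.8 FPKM against 86.2 FPKM (log2 ratio -2.44). Of 24 table rows for 23 genes of glycan synthesis and trimming, 10 were higher and 5 lower, and of the 18 expressed ones 5 were higher and 5 lower. PRKCSH, the beta subunit of glucosidase II, which trims glycans for CALR and CANX, had 39.9 FPKM against 7.42 FPKM (log2 ratio 2.41). MAN1B1, a mannosidase that trims glycans, had 5.91 FPKM against 28.0 FPKM (log2 ratio -2.23), and DHDDS, which makes the dolichol carrier, had 5.54 FPKM against 24.9 FPKM (log2 ratio -2.15). Of 16 listed genes of ER exit and retrieval, 6 were higher and 3 lower, and of the 14 expressed ones 4 were higher and 3 lower. The paralogs SAR1B, with 19.9 FPKM against 5.54 FPKM (log2 ratio 1.83), and SAR1A, with 16.5 FPKM against 49.8 FPKM (log2 ratio -1.58), are the GTPases that start the COPII coat, and they were on different sides on the deposited scale. Of 9 listed genes of the COPI coat, which returns proteins from the Golgi, 2 were higher and 5 lower. Of the 7 expressed ones 1 was higher and 4 lower. The median of the 9 was -1.65, against -1.29 for the COPII group. COPB1 had 4.43 FPKM against 29.2 FPKM (log2 ratio -2.69), and COPZ1 had 36.7 FPKM against 15.0 FPKM (log2 ratio 1.28). Of 10 genes of the ER membrane complex, which inserts membrane proteins, 3 were higher and 3 lower. Its 9 expressed ones had 2 higher and 3 lower. Of 15 genes of ER-associated degradation, 1 was higher and 4 were lower, and of the 14 expressed ones 0 were higher and 4 lower. SEL1L, the scaffold of the degradation ligase, had 14.5 FPKM against 76.0 FPKM (log2 ratio -2.38). Of 9 regulators of the unfolded protein response, 0 were at least 2-fold higher and 4 were lower, and of the 8 expressed ones 0 were higher and 3 lower. Among the expressed ones DDIT3, a stress-induced transcription factor, had the lowest ratio with 3.64 FPKM against 97.2 FPKM (log2 ratio -4.70). XBP1, a transcription factor of secretory cells and a luminal marker, had 345 FPKM against 226 FPKM (log2 ratio 0.61).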

How the data were processed

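The authors deposited 1 table with an FPKM value per gene for each of 2 libraries of T47D cells, IMP1 antibody and IgG control. RNA recovered from the beads was sent to a company for RNA-seq. The build is hg19 per the labels, and the aligner, the counting software and the annotation are not given in the sources used here. Exact zeros, written as 1e-05, were set back to 0, and 1 was added to the start of each interval, which counts from 0. The deposited fold changes, p-values and q-values and the 3 tables drawn from them hold the authors' own comparison and were not used.

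Per gene, the log2 ratio of (FPKM + 0.1) was computed and genes past 2-fold were counted. Counting and scaling were tested on simulated data. With 1 library per condition no test was run, and the values, being FPKM, give no depth. The members, the role groups and the lists of other genes were chosen with earlier results of these data known. All members are named, and other genes were taken from the 2 highest and 2 lowest ratios of each list among genes with at least 1 FPKM in each library. Exceptions, named after their values were seen, are the markers TFF1, ELF3, HLA-DRA and MZB1 and the genes HSPA5, SERP1 and CRELD2 that share a promoter element. Of the members, 61 were matched by Ensembl identifier to a current symbol, and promoter windows are from RefSeq (GRCh38.p14). The alternatives tried were pseudocounts of 1 and 0.01, filters on low values, scalings, a 4-fold threshold and protein-coding members alone. Protein sequences and protein lengths were not used here. Values were computed in Python 3.11.15 with pandas 2.3.3, numpy 2.4.6 and scipy 1.17.1, and drawn in matplotlib 3.10.9.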

Additional observations from a re-analysis of the deposited data

How the results depend on the processing

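No replicate could be left out with 1 library per condition, and for the same reason a paired fit could not be made. The number of members at least 2-fold higher, 12, became 21 after scaling to the median gene, 21 after scaling to the same sum without the 50 highest genes, 40 after scaling to the same sum and 6 at a threshold of 4-fold. The number lower, 18, became 6, 9, 3 and 6 in the same order. Under the scalings, in that order, 33.9%, 33.9% and 64.5% of members were at least 2-fold higher, against 49.3%, 46.3% and 63.7% of all genes and 24.95%, 20.1% and 51.6% of expressed genes. The shares lower were 9.68%, 14.5% and 4.84% of members, against 21.3%, 23.5% and 12.95% of all genes and 24.9%, 29.4% and 7.96% of expressed genes. Other alternatives kept both counts within 1.5 times. The median log2 ratio of the members, -0.33, was -0.28 with a pseudocount of 1, -0.35 with 0.01, -0.39 among expressed members and -0.36 among those above 0 in both. It was 0.43 after scaling to the median gene, 0.22 to the same sum without the 50 highest genes and 1.51 to the same sum. Each of these scalings multiplies all IMP1 values, which sets the shift. Scaling to the same sum turned the median of the COPII group to 0.55 and of the targeting group to 0.63, and turned members that were at least 2-fold lower to above 0: SEC62 (0.81), SEC11C (0.78), SRP72 (0.70), TMED7 (0.58), SEC24A (0.58), SRP9 (0.55), SEC23A (0.51), SEC24B (0.50), SEC22B (0.30), STT3B (0.29), SEC23B (0.27) and SRP14 (0.16). SRP54, SRP19, SEC63, SEC31A, SEC23IP and SRP14-AS1 stayed below 0 under every scaling. No other alternative turned a member past 2-fold. With unknown depth, ratios of members near 1 FPKM are the least certain.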

Other observations

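The ER stress response element was found for 25 genes in all, and 11 of these had at least 1 FPKM in both libraries. Their median log2 ratio was -1.32, with 1 at least 2-fold higher with the IMP1 antibody (CALR) and 6 at least 2-fold lower. Over all expressed genes the median was -0.78, with 11.5% higher and 44.0% lower, so that these counts are near the background. The genes named here were chosen after their values were seen. HSPA5, the ER chaperone BiP, had 38.0 FPKM with the IMP1 antibody and 102 FPKM with IgG (log2 ratio -1.42). SERP1, a small ER protein induced by stress, had 21.0 FPKM against 82.8 FPKM (log2 ratio -1.97). CRELD2, another ER stress gene, had 4.86 FPKM against 2.68 FPKM (log2 ratio 0.83).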
